A study of Mus musculus with 20 samples.

Results

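In the livers of mice given the antisense oligonucleotides SPC4955 or SPC4061, 40 of 22361 measured genes had a higher mean level than in all the other groups and about the same level with both. The choice used the measured values: a gene's mean with SPC4955 and its mean with SPC4061 each had to lie at least 0.3 (log2 intensity) above the means with saline, SPC3833 and SPC3847, and the first 2 means had to be less than 0.3 apart. The level of a gene was its log2 intensity on an array, so a difference of 1 is a doubling. The 40 genes therefore differ between these groups by construction. Their differences, and the counts of them found higher in a fit over all genes, are descriptions and do not test the choice.

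The 20 mice were female C57BL/6 mice with no genetic change named in the labels, and their age is not given in the sources used here. Each of 5 groups held 4 mice. The groups were given saline, SPC3833 at 5 mg/kg, or SPC4955, SPC4061 or SPC3847 at 10 mg/kg each. All received 3 intravenous doses on consecutive days. Livers were taken on day 3 counted from a first dose on day 0 by one label, and 4 days after the first dose by another. SPC3833 was given at another dose than the rest, so its lower values cannot be told apart from an effect of dose.

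Antisense oligonucleotides are short synthetic strands built to pair with an RNA by complementary sequence, and one common kind lets the enzyme RNase H cut the paired RNA. The liver takes up a large part of an injected oligonucleotide, which makes it a usual tissue for such studies. Messages without a matching site can also change in level after dosing, upward as well as downward. The labels give only code names for the 4 compounds, so neither their targets nor their chemistry are stated here. In whole liver, more cells of a type and more RNA per cell cannot be told apart.

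The genes are given by Ensembl identifier or by rank, since no file used here links these identifiers to symbols. None of the identifiers was found in the gene table at hand, so no gene name, role, promoter or other sequence is given, and the label of the tissue could not be checked against liver markers. Rank 1 is the gene with the largest gap, which is the smaller of the SPC4955 and SPC4061 means minus the highest of the 3 other means. The first 2 ranks were named by a fixed rule, and the other ranks singled out here were chosen after their values were seen.

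Array medians lay between 6.37 and 6.53 and quartile ranges between 2.70 and 3.21 (log2). Arrays of 1 group correlated at 0.983 to 0.997 across genes, and no pair of arrays was identical. Saline replicate 1 and SPC4955 replicate 1 lay farthest from their group means over all genes, with SDs of the deviations of 0.270 and 0.236 against 0.101 to 0.227 on the other 18 arrays. Values without one or both of them are given beside the choice of genes, the genes they weigh on most and the counts of calls. SPC3847 replicate 4 came close to them, with an SD of 0.227, and had the lowest quartile range (2.70) and the highest median (6.53).

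The gap was small for most of the 40 genes. Its median was 0.36, a 1.29-fold difference, and it ranged from 0.30 to 1.72. Only 3 genes reached 0.5, and 24 stayed under 0.4. On the plot of both gaps per gene, most points lie close to the lower limit. The 3 chosen genes nearest the limit had gaps of 0.3005, 0.3020 and 0.3024, and the 3 genes just outside it had 0.2992, 0.2973 and 0.2972. A further 26 genes in all met the limit on distance with a gap between 0.25 and 0.3. At the limit on distance between the SPC4955 and SPC4061 means, the chosen genes came to 0.27, 0.26 and 0.26, and the first genes beyond it to 0.30, 0.32 and 0.32. There were 14 genes with a gap of at least 0.3 whose 2 raised means lay farther apart, 8 of them higher with SPC4061 and 6 higher with SPC4955.

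**Figure D1:**
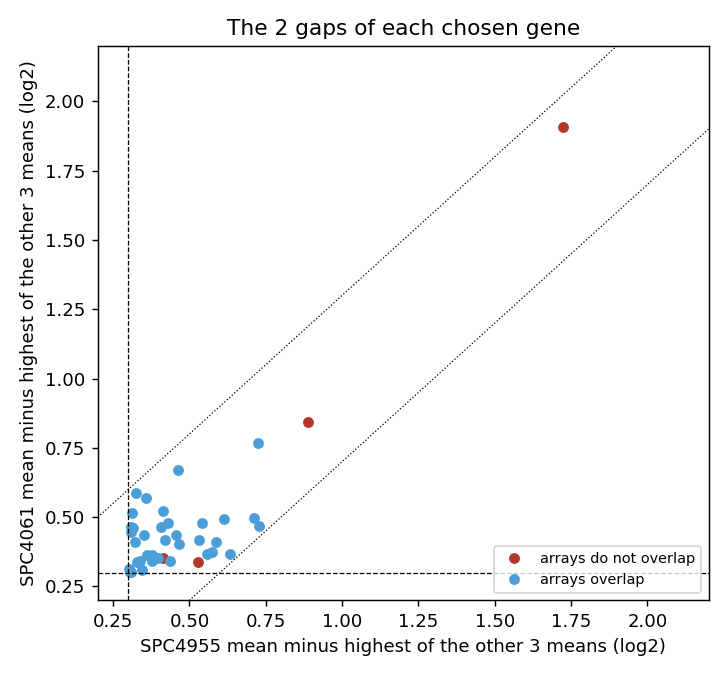
Each point is 1 of the 40 chosen genes, with the SPC4955 mean (x axis) and the SPC4061 mean (y axis) minus the highest of the saline, SPC3833 and SPC3847 means, in log2 intensity. Dashed lines mark the limit of 0.3 and dotted lines the allowed distance of 0.3. The gene at the top right is ENSMUSG00000034774, and 37 genes have a gap under 0.5.

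ENSMUSG00000034774 stood far above the other chosen genes, with a gap of 1.72. Its log2 intensity was 7.29, 8.12, 7.15 and 7.47 on the SPC4955 arrays. It was 7.94, 7.60, 7.69 and 7.54 on the SPC4061 arrays. The saline arrays read 5.57, 6.06, 5.19 and 5.46. All 8 arrays of SPC4955 and SPC4061 lay above the 12 others, and the lowest of the 8 was 0.80 above the highest of the 12. With SPC3833 the levels were 6.12, 5.64, 5.33 and 5.42, and with SPC3847 they were 5.71, 5.71, 6.35 and 5.37. These last 2 groups overlapped the saline arrays. The means were 5.57 ± 0.36 with saline, 7.51 ± 0.43 with SPC4955 and 7.69 ± 0.18 with SPC4061 (SD, n = 4 each), so the level was 3.83-fold and 4.35-fold that with saline. Against SPC3847 at the same dose, the gene was 3.30-fold higher with SPC4955 and 3.76-fold higher with SPC4061. The SPC3833 mean of 5.63 ± 0.35 and the SPC3847 mean of 5.78 ± 0.41 (n = 4 each) lay 0.06 and 0.21 above saline, less than the spread within any of these 3 groups.

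ENSMUSG00000037379 had the next largest gap, 0.84. Its log2 intensity was 8.44, 7.97, 7.72 and 8.01 with SPC4955. With SPC4061 it was 8.35, 7.80, 7.61 and 8.22. The saline arrays read 7.11, 6.99, 6.87 and 6.96. Again the 8 raised arrays lay above the 12 others, here with a margin of 0.14. The SPC3847 arrays lay at 7.04, 7.12, 7.13 and 7.30, while SPC3833 replicate 1 read 7.47 and the other SPC3833 arrays 7.03, 7.01 and 6.97. The level was 2.07-fold that with saline for SPC4955 (8.04 ± 0.30 against 6.98 ± 0.10, SD, n = 4 each) and 2.01-fold for SPC4061 (7.99 ± 0.35). Replicate 1 was the highest array of SPC4955, SPC4061, SPC3833 and saline, and without SPC4955 replicate 1 the gap was 0.75.

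A further 2 genes had no overlap between the 8 raised and the 12 other arrays, though their gaps were modest. The gene of rank 23 read 8.74, 8.72, 8.53 and 8.57 with SPC4955 and 8.57, 8.61, 8.61 and 8.53 with SPC4061. Its saline arrays were at 8.40, 8.15, 8.17 and 8.12, its SPC3833 arrays at 8.34, 8.22, 8.08 and 8.27, and its SPC3847 arrays at 8.08, 8.22, 8.28 and 7.90. It had the smallest spread within groups of the 40 (pooled SD 0.118), so that a gap of 0.35 was 3.01 times that spread. At rank 29 the levels were 7.29, 7.38, 7.48 and 7.46 with SPC4955 and 7.37, 7.38, 7.01 and 7.08 with SPC4061. On the saline arrays it read 6.86, 6.67, 6.82 and 6.81, with SPC3833 6.65, 6.67, 6.50 and 6.63, and with SPC3847 6.82, 6.96, 6.72 and 6.99. The margin between its lowest raised array and its highest other array was 0.02. It differed among the lower groups as well, with SPC3833 0.26 below SPC3847.

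**Figure D2:**
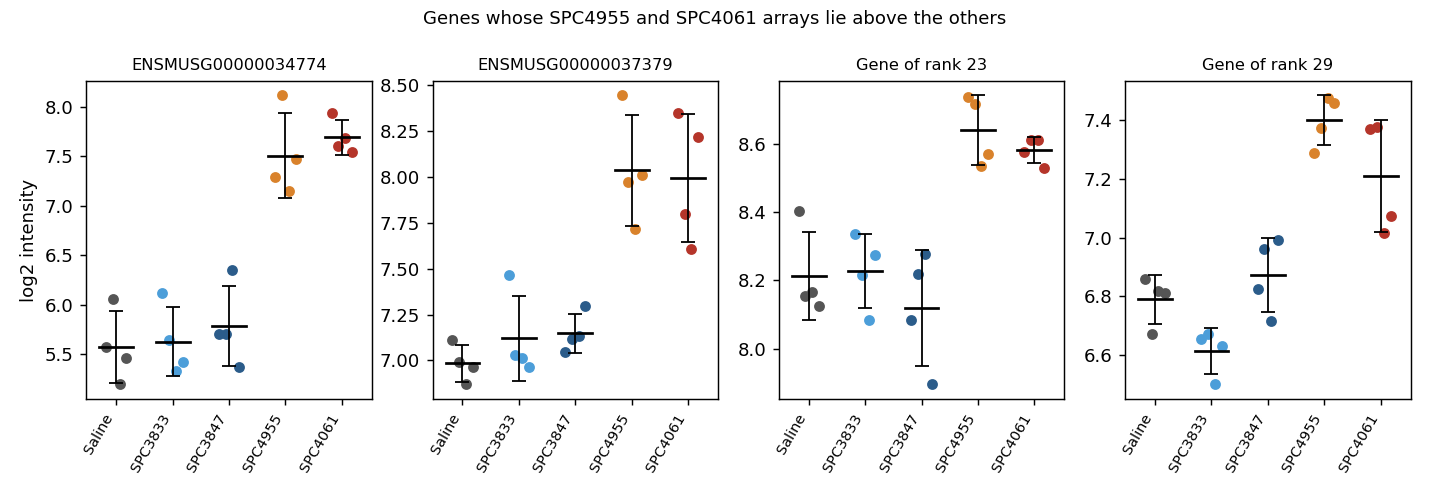
Log2 intensity (y axis) of the 4 chosen genes whose SPC4955 and SPC4061 arrays all lay above the 12 other arrays. Each point is 1 mouse, the horizontal line is the mean of 4 and the bar is the SD. The vertical scales differ between panels and do not start at 0, and the margin runs from 0.80 in ENSMUSG00000034774 to 0.02 in the gene of rank 29.

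The other 36 chosen genes had overlapping arrays. Over all 22361 genes, 41 (0.183%) had all 8 raised arrays above the 12 others, 4 of them among the chosen genes. Of the 37 that were not chosen, 34 had a gap under 0.3 and 3 had raised means at least 0.3 apart, and the median gap of the 37 was 0.20. A further 20 genes had the 8 arrays below the 12 others. Among the chosen genes, 16 had at least 6 of the 8 raised arrays above all 12 others, and 8 genes had 2 or fewer. These partial overlaps were not counted over all genes, so they only describe the chosen genes. The gap was at least 2 times the pooled SD within groups in 6 genes and less than 1 SD in 9 genes.

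The chosen genes varied more within groups than most genes did. Their pooled SD had a median of 0.269, against 0.137 over all genes, and in 35 of 40 it lay above 0.175, the third quartile of all genes. The rule sets a minimum difference and no limit on spread. The mean level over the 20 arrays ran from 3.56 in the gene of rank 10 to 10.33 in the gene of rank 33. By the quartiles of all genes (5.08, 6.44 and 8.07), 7 chosen genes lay below the first quartile, 6 between it and the median, 18 between the median and the third quartile and 9 above that. The dimmest gene, of rank 10, went from 3.44 ± 0.15 with saline to 3.87 ± 0.26 with SPC4955 and 3.91 ± 0.21 with SPC4061 (SD, n = 4 each). Background signal on the arrays was not analysed here. Differences at such low levels are therefore differences of deposited values and may understate those of RNA. The brightest gene, of rank 33, went from 10.11 ± 0.12 with saline to 10.53 ± 0.17 and 10.67 ± 0.04 (n = 4 each). In that gene SPC3833 replicate 1, at 10.53, overlapped the raised arrays, of which the lowest was 10.29.

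**Figure D3:**
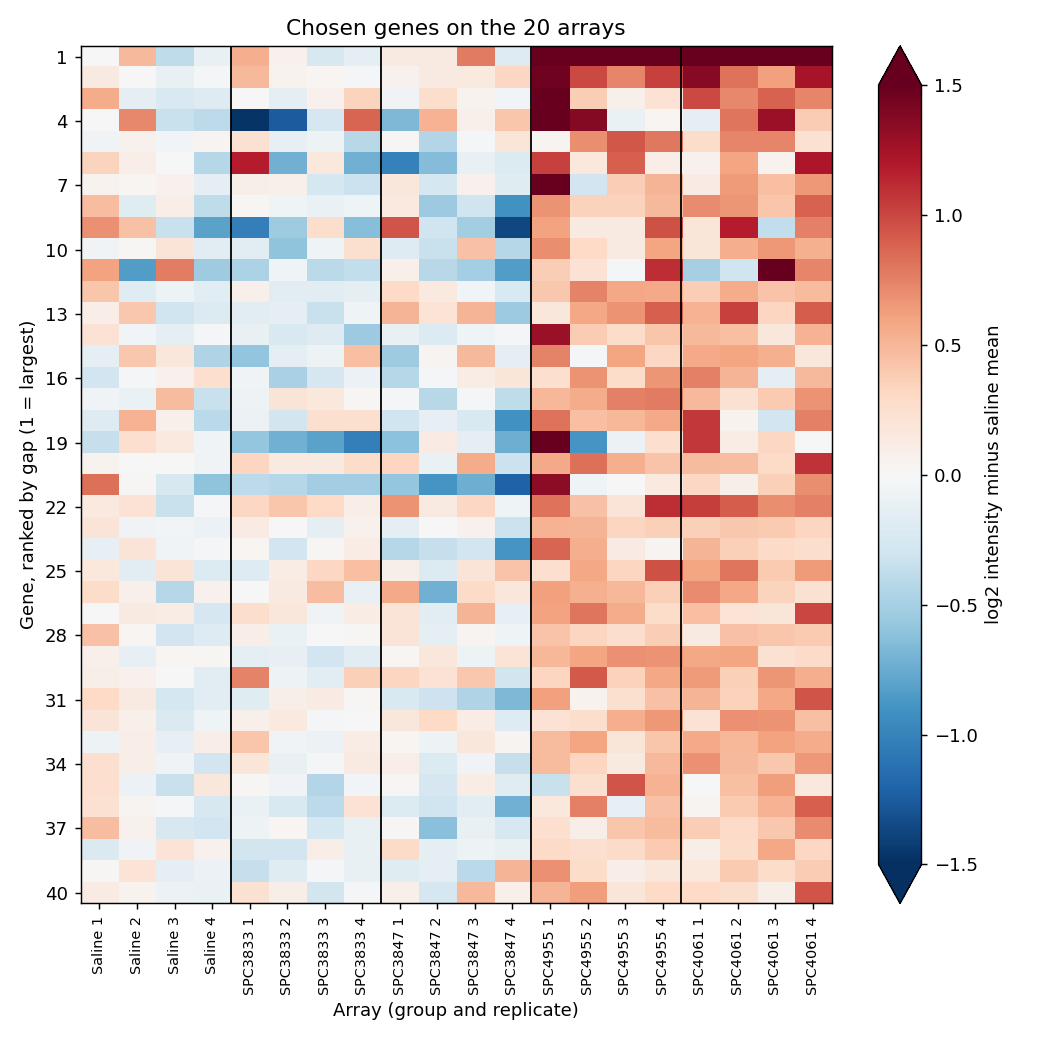
Log2 intensity of the 40 chosen genes (rows, ranked by gap) on the 20 arrays (columns, by group and replicate), each minus the gene's saline mean. Colours saturate at 1.5 in either direction. Most rows are weakly red over the SPC4955 and SPC4061 columns, with differences from saline of 0.48 and 0.46 at the median, and SPC4955 replicate 1 holds several single dark cells.

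In several genes the difference with SPC4955 came mainly from replicate 1. The gene of rank 3 read 7.20 on that array and 5.09, 4.80 and 4.94 on the other SPC4955 arrays, while its SPC4061 arrays read 5.71, 5.45, 5.61 and 5.45. Without SPC4955 replicate 1 its gap was 0.16, against 0.72 with it. At rank 7 the level was 7.87 on that array and 5.26, 5.92 and 6.05 on the others, and its gap went from 0.47 to 0.19. At rank 19 it was 9.22 there and 5.09, 5.88 and 6.22 on the others. In that gene the gap turned from 0.37 to -0.24 without the array. It also had the largest pooled SD of the 40, 0.868. At rank 21 the levels were 9.48 on SPC4955 replicate 1 and 8.97 on saline replicate 1, each the highest of its group. Its gap of 0.36 became 0.03 without the first, 0.64 without the second and 0.31 without both.

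Over the 40 genes, SPC4955 replicate 1 was the highest of its 4 arrays in 18 and saline replicate 1 in 21. Over all genes the shares were 23.8% and 23.5%. Without SPC4955 replicate 1, 12 of the 40 genes had a gap under 0.3, and without saline replicate 1, 2 did. Without both arrays 28 of the 40 kept a gap of at least 0.3, with a median gap of 0.34 over the 40. The rule then chose 55 genes, of which 26 were among the 40.

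The median of the 40 genes on each array, relative to their saline means, lay between 0.32 and 0.58 on the SPC4955 arrays and between 0.41 and 0.64 on the SPC4061 arrays. It lay between -0.20 and 0.13 on the other 12 arrays. The group means of these medians were 0.46 ± 0.11 with SPC4955 and 0.51 ± 0.10 with SPC4061 (SD, n = 4 each). This separation follows from the choice of the genes. The 4 saline arrays, which no contrast of the rule divides, spread from -0.16 in replicate 4 to 0.13 in replicate 1, with 30 of 40 genes above the saline mean in replicate 1 and 7 of 40 in replicate 4. The SPC3847 arrays spread as widely, from -0.20 in replicate 4 to 0.05 in replicate 3, and 31 of 40 genes lay above their group mean in replicate 3. The quartile range of the whole array went the same way on some of these arrays, with 3.15 and 2.81 on saline replicates 1 and 4, and 3.10 and 2.70 on SPC3847 replicates 3 and 4. In the raised groups the order was mixed. SPC4955 replicate 1 had the highest median of its group (0.58) and the lowest quartile range (2.99). On SPC4955 replicates 3, 2 and 4 the ranges were 3.00, 3.03 and 3.21 and the medians 0.32, 0.44 and 0.48. SPC4061 replicate 3 had the lowest median (0.41) and the highest range (3.20) of its group. Replicates 1, 2 and 4 of SPC4061 had medians of 0.48, 0.49 and 0.64 at ranges of 3.02, 3.18 and 3.18. A link between array width and these medians was not tested. By group, the mean quartile range was 3.14 with SPC4061, 3.06 with SPC4955, 2.97 with saline, 2.96 with SPC3847 and 2.91 with SPC3833. With all arrays brought to the same distribution by quantile normalization the rule chose 36 genes, 24 of them among the 40.

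**Figure D4:**
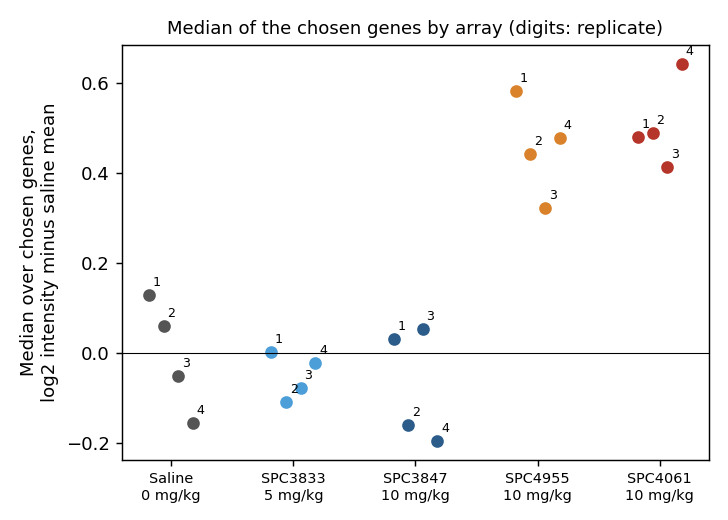
Median over the 40 chosen genes of log2 intensity minus the gene's saline mean (y axis) for each of the 20 mice, by group and dose, with replicate numbers beside the points. The SPC4955 and SPC4061 arrays lie at 0.32 or above and the 12 others at 0.13 or below, as the choice of genes implies.

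A measure that the choice did not use is the order of arrays that were left out of it. The rule was applied 4 times, each time without the arrays of 1 replicate number, and the genes it chose were read on the 5 arrays left out, 1 per group. The labels give the numbers only as biological replicates, and do not say whether mice of 1 number were handled together. The 4 choices share most of their arrays. Without the arrays numbered 4, the rule chose 23 genes, and on the arrays left out both SPC4955 and SPC4061 lay above the 3 others in 17 of them (73.9%), against 20.2% of all genes. Without the arrays numbered 2, this held for 22 of 38 genes (57.9%), against 11.5% of all genes. Without those numbered 3, it held for 21 of 47 (44.7%), against 10.6%. Without those numbered 1, which include both arrays that stood apart, the rule chose 80 genes, and it held for 22 of them (27.5%), against 11.5%. In all 4 cases the share was above that of all genes, and it was lowest on the arrays numbered 1. On the arrays numbered 4, quartile ranges were 3.21 and 3.18 with SPC4955 and SPC4061, and 2.70 to 2.87 in the 3 others. For number 2 they were 3.03 and 3.18 against 2.87 to 3.03, and for number 3, 3.00 and 3.20 against 2.87 to 3.10. For number 1 they were 2.99 and 3.02 against 2.97 to 3.16. The shares were not adjusted for array width, and its part in them was not tested.

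The size of the difference shrank on the arrays left out by amounts that depended on the array numbers. The median of the mean of the 2 raised arrays minus the mean of the 3 others was 0.57 on the arrays numbered 4, against 0.58 on the arrays used for that choice. It was 0.43 against 0.53 for the arrays numbered 2, and 0.31 against 0.58 for those numbered 3. For the arrays numbered 1 it was 0.10 against 0.52. Over all genes this median lay between -0.02 and 0.02 on the arrays left out. Against saline alone, the genes chosen without the arrays numbered 1 had a median difference on those arrays of 0.00 with SPC4955 and 0.10 with SPC4061. ENSMUSG00000037379 was chosen in all 4 cases, and its gap on the arrays left out was 0.88, 0.68, 0.47 and 0.71 for the numbers 1 to 4. ENSMUSG00000034774 had gaps of 1.18, 1.55, 0.80 and 2.01 there, and it was chosen in 3 of the 4. Without the arrays numbered 2 its SPC4955 and SPC4061 means lay more than 0.3 apart.

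**Figure D5:**
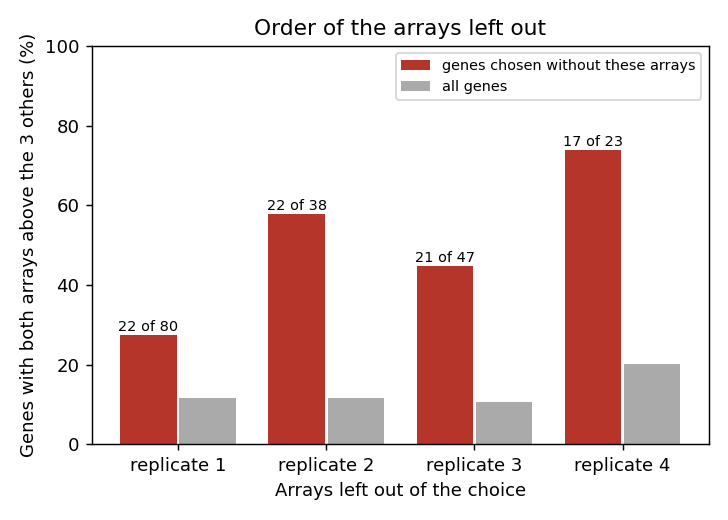
Share of genes (y axis, percent) with both the SPC4955 and the SPC4061 array above the 3 other arrays, on the 5 arrays of 1 replicate number (x axis). Red bars are genes chosen by the rule without those arrays, with their counts, and grey bars are all 22361 genes. Red bars run from 27.5% to 73.9% and grey bars from 10.6% to 20.2%.

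The chosen genes did not share 1 order among the 3 lower groups. Saline had the highest of the 3 means in 18 genes, SPC3833 in 13 and SPC3847 in 9. Both SPC3833 and SPC3847 were below saline in 18 genes, both were above it in 13, and they lay on either side of it in 9. The median difference from saline was -0.04 with SPC3833 and -0.05 with SPC3847. The first of these turned to 0.046 when saline replicate 1 was left out, and leaving out saline replicate 4 gave -0.098. Over all genes the medians were 0.05 and 0.02. The rule holds SPC3833 and SPC3847 at least 0.3 below the raised means and sets no lower limit on them. None of the 40 genes was 0.3 or more above saline with either compound. With SPC3833, 5 were 0.3 or more below saline, and with SPC3847, 10 were. In the fit over all genes (limma, Benjamini-Hochberg adjusted), none of the 40 was called higher or lower than saline with SPC3833, where 3.71% of all genes were called higher and 3.35% lower. None was called with SPC3847, where the shares were 1.84% and 1.49%. At an unadjusted limma p under 0.05, none was higher or lower with SPC3833, where 12.1% of all genes were higher and 7.29% lower. None was higher with SPC3847 and 4 were lower with it, where the shares of all genes at that unadjusted p were 8.998% and 5.72%. These saline, SPC3833 and SPC3847 means entered the choice, so nothing is read from these counts.

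The lower groups lay far apart in the gene of rank 21, at 8.14 ± 0.61 with saline, 7.67 ± 0.06 with SPC3833 and 7.29 ± 0.27 with SPC3847 (SD, n = 4 each), against 8.50 ± 0.66 with SPC4955 and 8.50 ± 0.25 with SPC4061. In that gene the raised means lay 0.36 above saline, and 0.83 or more above the other 2 compounds. Its lower means spanned 0.85, and 0.57 without saline replicate 1, when the saline mean was 7.86. The gene of rank 8 was also lower with SPC3847 (6.30 ± 0.44) than with saline (6.70 ± 0.36) or SPC3833 (6.65 ± 0.05), with SPC4955 at 7.17 ± 0.15 and SPC4061 at 7.37 ± 0.19 (n = 4 each). In the gene of rank 4 the SPC3833 mean was lowest, at 8.09 ± 1.07, but its arrays ran from 7.14 to 9.49 and overlapped every other group. Lowest with SPC3833 too was the gene of rank 19, at 5.19 ± 0.19 against 5.97 ± 0.26 with saline. Its lower means spanned 0.78, and 0.90 without saline replicate 1.

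In the same fit, 12 of the 40 chosen genes were called higher with SPC4955 than with saline, where 4.22% of all genes were, and 16 were called higher with SPC4061, where 8.73% were. The choice used these contrasts, so the counts are descriptions. Both calls were made for 10 of the 40, and for 410 of all genes (1.83%). For SPC4955 the count dropped to 6 when saline replicate 3 was left out and to 7 when replicate 4 was, while all genes called went from 943 to 768 and 535. With only the 8 arrays of SPC4955 and saline fitted it was also 6, with 339 of all genes called. For SPC4061 it was 10 when saline replicate 2 was left out, and 9 when either saline replicate 4 or SPC4061 replicate 4 was, while all genes called went from 1952 to 1767, 1231 and 1260. With the quartile range as a covariate it was 7, with 1298 of all genes called. Without both arrays that stood apart the counts were 13 with SPC4955 and 19 with SPC4061, with 928 and 2016 of all genes called. Without SPC3847 replicate 4 they were 16 and 16, with 1160 and 2367 of all genes called. Against SPC3833, 11 of the 40 were called higher with SPC4955 (3.56% of all genes) and 21 with SPC4061 (9.5%). Against SPC3847 the counts were 17 with SPC4955 (4.7%) and 15 with SPC4061 (4.76%). Between SPC4955 and SPC4061 none of the 40 was called in either direction by limma (3.58% of all genes were called higher and 5.17% lower with SPC4955), and 1 was higher with SPC4955 at an unadjusted p under 0.05, where 9.72% of all genes were higher and 11.01% lower. These genes were chosen for raised means less than 0.3 apart.

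Only 5 of the 40 were called higher in all 6 comparisons of SPC4955 and SPC4061 with the 3 lower groups, as were 12 of all genes (0.0537%). In none of the 6 were 13 of the 40 called. The share of all genes called in none was not counted, so nothing is read from the 13. The 5 were the 4 genes without overlap and the gene of rank 12. That gene read 7.12, 7.45, 7.29 and 7.27 with SPC4955 and 7.08, 7.26, 7.14 and 7.19 with SPC4061, against 7.13, 6.53, 6.63 and 6.55 with saline, so that only saline replicate 1 reached the raised arrays. Its SPC3833 arrays were at 6.78, 6.55, 6.55 and 6.57 and its SPC3847 arrays at 7.005, 6.85, 6.67 and 6.48. Of the 7 genes called in all 6 comparisons but not chosen, 5 had a gap under 0.3 and 2 had raised means at least 0.3 apart.

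The same rule applied to the other pairs of compounds chose 52 genes raised with SPC4955 and SPC3833, 23 with SPC4061 and SPC3847, 6 with SPC4061 and SPC3833, 6 with SPC3833 and SPC3847, and 3 with SPC4955 and SPC3847. The mirror of the rule, with the means of SPC4955 and SPC4061 at least 0.3 below all 3 others, chose 12 genes. For the other pairs the mirror chose 56 genes with SPC4955 and SPC3833, and 17 with SPC4061 and SPC3847. It chose 11 with SPC4061 and SPC3833, 24 with SPC3833 and SPC3847, and 5 with SPC4955 and SPC3847. The pairs share arrays, and SPC3833 differed in dose, so these counts are set side by side without a test.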

How the data were processed

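Total RNA from 20 livers was labelled with biotin and measured on single-colour Affymetrix arrays, per the labels. The authors deposited log2 intensities, 1 per gene and array. The affy package was used per the submitters' processing notes, and the sources used here do not give the background correction, normalization or probe assignment. These steps could stretch or compress differences, since array widths differed. Depth does not apply to arrays, so the number of mice limits the precision.

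Groups and replicate numbers came from the sample titles. The chosen genes, gene lists and tests were chosen with earlier results of these data known. The rule was applied to group means of the deposited values. Group means of 22361 genes were compared in 1 linear model over the 20 arrays (15 residual degrees of freedom, default prior) using the limma package, version 3.58.1, under R 4.3.3, with Benjamini-Hochberg adjustment over all genes of a comparison and calls at an adjusted p under 0.05. The fit was tested on simulated arrays, and the rule was checked on a small made-up set of group means without noise. Summaries and figures used Python 3.11.15. Named genes were to be the 15 largest gaps, the members of lists and the extremes. Without symbols the rule named only the 2 largest gaps, and the 23 gene lists and 9 lists of cell type markers could not be matched. The alternatives were scaling, filters, limits of the rule, other fits and leaving out arrays.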

Additional observations from a re-analysis of the deposited data

Results flagged for a closer look

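In 5 of 35 groups of 4 arrays looked at, 1 array lay far from the other 3 by Dixon's criterion. The 35 groups covered 7 values: the genes of ranks 1, 2, 3, 12, 23 and 29 and the median of the chosen genes. Ranks 3, 12, 23 and 29 were picked after their values were seen, so the 5 of 35 cannot be set against chance. ENSMUSG00000037379 read 7.47 on SPC3833 replicate 1. The gene of rank 3 read 5.28 on saline replicate 1 and 7.20 on SPC4955 replicate 1. The gene of rank 12 read 6.78 on SPC3833 replicate 1, and the gene of rank 23 read 8.40 on saline replicate 1. All 5 were the highest array of their group and carried the replicate number 1. Over all 40 genes the criterion was met in 11 of 200 groups (5.5%). The nominal rate is about 1 in 20 groups, but these groups share arrays and their genes were chosen on group means. The rate over all genes was not counted, so nothing is read from this share.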

How the results depend on the processing

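With a minimum gap of 0.2 the rule chose 140 genes and with 0.5 it chose 3. Without replicate 1 of every group it chose 80, with 25 of the 40 among them, and without replicate 4 it chose 23, with 17 of the 40. Leaving out 1 array at a time gave 30 to 51 genes, and 6 of the 40 were chosen in all 20 of these settings. Median centring gave 47 genes, of which 34 were among the 40, and quantile normalization 36, of which 24 were. Group medians of the arrays gave 35, of which only 21 were among the 40, and the filter on dim genes left 33. Of the 40 genes, those called higher than saline with SPC4955 numbered 6 when only 8 arrays were fitted (339 of all genes, against 943) and 6 to 16 with 1 array left out (535 to 1160 of all genes). Those called higher with SPC4061 numbered 7 with the quartile range as a covariate (1298 of all genes, against 1952) and 9 to 19 with 1 array left out (1231 to 2367). With the replicate number as a block these counts were 10 and 14 (798 and 1678 of all genes). Deviations of same-numbered arrays correlated above 0.1 in 9 of 40 pairs (-0.50 to 0.52), so the numbers were not taken as pairs. The median difference from saline of the 40 genes ranged from -0.098 to 0.046 with SPC3833 and from -0.083 to -0.015 with SPC3847 when 1 array was left out. It was 0.046 with SPC3833 without both arrays that stood apart, a setting chosen after seeing the data. This is the value without saline replicate 1 alone, since no SPC4955 array enters that difference. The cause of these shifts was not tested. The gap of ENSMUSG00000034774 ran from 1.52 to 1.88 and that of ENSMUSG00000037379 from 0.73 to 0.89 with 1 array left out. Counts for gene lists under these settings were not run, because no list could be matched.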
